A study of Mus musculus with 4 samples.

Results

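Leukocyte adhesion to the vessel wall was examined through 10 genes that were chosen by symbol: Selp, Sele, Selplg, Vcam1, Icam1, Icam2, Itgb2, Itgal, Itgam and Itga4. All 10 were found among the 55414 genes of the deposited matrices, Selp and Sele on chromosome 1, Itga4 on 2, Vcam1 on 3, Selplg on 5, Itgal and Itgam on 7, Icam1 on 9, Itgb2 on 10 and Icam2 on 11 (GRCm38 annotation). Their transcripts were followed in endothelial, macrophage, neutrophil, monocyte and lymphocyte barcodes of mouse liver. The 4 groups were S/S mice given TNF, A/A mice given TNF, S/S mice at baseline and A/A mice at baseline, where S/S and A/A are the genotype symbols of the labels, which do not spell them out. TNF, an inflammatory cytokine, was injected intraperitoneally at 500 ng, 3 h before the cells were taken, and all mice were 2 months old. Each group was 1 single-cell RNA library (10x 3′ chemistry) made from the pooled liver cells of 2 mice. There were no replicate libraries, so no comparison was tested and no p-value is given. Livers had been perfused and digested in place, parenchymal cells reduced by slow spins, dead cells removed on Ficoll, and live cells and macrophages enriched by flow sorting, so the share of each cell class also reflects the sort.

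White blood cells leave the bloodstream in steps. Selectins on activated endothelium catch passing cells by sugar-bearing ligands and let them roll. Immunoglobulin-family receptors on the endothelium then hold them by binding leukocyte integrins, which have to be switched on before they grip. P-selectin (Selp) is carried by endothelial cells and platelets, and E-selectin (Sele) is made by endothelium after cytokine exposure. Their shared leukocyte ligand PSGL-1 is encoded by Selplg. VCAM1 binds the α4β1 integrin, whose α chain is encoded by Itga4. ICAM1 binds the β2 integrins LFA-1 (Itgal with Itgb2) and Mac-1 (Itgam with Itgb2), while ICAM2, which resting endothelium already carries, binds LFA-1. In the liver sinusoids leukocytes can also arrest without selectins, and these adhesion steps are studied in vessel occlusion, where blood cells stick to the endothelium.

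Promoter sequences are shown for the members that a RefSeq promoter table covered and that held a searched motif, because TNF acts on endothelial adhesion genes largely through NF-kB and because Itgam is known as a myeloid gene. The table (RefSeq, GRCm38.p6, an earlier build than that of the count matrices) held 5 of the 10 members, and the 250 bases before each transcription start were read on the gene's strand, which is the plus strand for all of them. The NF-kB type motif GGNNNTTCC and the PU.1 type motif GAGGAA were searched on both strands, and capitals mark every match. The windows are chr1:164115014-164115263 for Selp, chr1:164047984-164048233 for Sele, chr9:21015690-21015939 for Icam1 and chr7:128062390-128062639 for Itgam.
Selp: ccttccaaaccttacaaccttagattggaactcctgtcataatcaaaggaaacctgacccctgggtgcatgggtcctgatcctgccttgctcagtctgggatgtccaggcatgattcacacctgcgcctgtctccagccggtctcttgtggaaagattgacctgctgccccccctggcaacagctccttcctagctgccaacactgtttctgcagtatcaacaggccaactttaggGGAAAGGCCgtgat
Sele: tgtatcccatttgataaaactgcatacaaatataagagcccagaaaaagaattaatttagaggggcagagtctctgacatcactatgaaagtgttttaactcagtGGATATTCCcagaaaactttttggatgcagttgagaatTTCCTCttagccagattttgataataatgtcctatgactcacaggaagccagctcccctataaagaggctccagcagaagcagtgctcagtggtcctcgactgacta
Icam1: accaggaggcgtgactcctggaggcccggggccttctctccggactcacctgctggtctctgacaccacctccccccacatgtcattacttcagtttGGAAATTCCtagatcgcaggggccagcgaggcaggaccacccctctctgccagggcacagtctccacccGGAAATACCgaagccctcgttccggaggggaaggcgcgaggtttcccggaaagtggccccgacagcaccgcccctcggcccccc
Itgam: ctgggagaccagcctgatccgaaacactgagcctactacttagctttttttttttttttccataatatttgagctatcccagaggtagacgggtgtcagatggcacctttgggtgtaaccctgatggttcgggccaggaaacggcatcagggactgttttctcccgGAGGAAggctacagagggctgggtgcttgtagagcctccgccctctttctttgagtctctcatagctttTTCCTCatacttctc
Icam1 held the NF-kB type motif at 2 places. The first, GGAAATTCC at 153 bases before the start, reads as a match on both strands, and the second, GGAAATACC at 84 bases, lies on the minus strand. Sele held GGATATTCC at 145 bases before the start and 1 minus-strand PU.1 type match at 107 bases, and Selp held GGAAAGGCC on the minus strand at 14 bases. Itgam held no NF-kB type match in this window but 2 PU.1 type matches, at 84 bases on the plus strand and at 15 bases on the minus strand. The fifth member in the table, Itga4, held neither. Of 32851 promoters of the same length, 15.7% held the NF-kB type motif and 23.3% the PU.1 type motif, so a single match is common. These matches describe letters and say nothing about binding in these livers.

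Counts were unique molecular identifiers (UMIs, one per captured transcript molecule). The libraries held 3230 to 6531 barcodes and 21088801 to 54999906 UMIs, and 2830 to 6452 barcodes per library were kept. Barcodes were placed in classes by markers, with at least 3 detected, and the classes therefore carry the ending "-like". Those with markers of a second class (11.4 to 15.4% of the kept barcodes) were set aside, and 2 to 11 barcode sequences were shared between any 2 libraries. Levels are UMIs of the gene scaled to 1000000 UMIs of the class in that library (CPM), which suits comparison of 1 gene between libraries rather than of different genes. All brackets are 95% intervals for counting error; they leave out differences between mice and preparations. A gene was called higher or lower when it differed at least 2-fold, the pair together held 20 UMIs or more, and both libraries had 50 barcodes or more of the class, which is a rule of size and no test. Endothelial-like barcodes numbered 587 in the S/S TNF, 1257 in the A/A TNF, 36 in the S/S baseline and 301 in the A/A baseline library, so the S/S baseline endothelium fell short of that rule and its values are given without a call. All 17 endothelial markers were detected in the endothelial-like class of each library. The same markers set the class, so their detection is no independent support for its identity. Among the first 10 leading genes of the class, 1 was such a marker in each TNF library, 3 in S/S baseline and 5 in A/A baseline. Both TNF libraries had been counted with another Cell Ranger version than both baseline libraries, so version and treatment cannot be told apart in any TNF comparison.

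Selp, Sele, Vcam1 and Icam1 were higher after TNF in A/A endothelium, Icam1 was also higher in all 4 other classes of both genotypes, and the leukocyte ligand genes differed in both directions. In A/A livers 47 of the 50 pairs of a gene and a class could be compared, of which 25 were higher and 4 lower after TNF, against 15.2% higher and 20.9% lower among all gene and class pairs. In S/S livers 39 pairs could be compared, of which 18 were higher and 4 lower, against 11.7% and 23.5% of all pairs. The S/S TNF library set against the A/A TNF library gave 6 higher and 0 lower of 50 pairs, against 4.28% and 2.75% of all pairs. The S/S baseline library set against the A/A baseline library gave 0 higher and 3 lower of 29 pairs, against 6.75% and 5.14%. The pairs that were not compared had too few UMIs, or, in S/S baseline endothelium, too few barcodes. The median gene itself was displaced in some TNF comparisons, at log2 ratios of -0.75 in S/S and -0.36 in A/A neutrophils, -0.24 in S/S monocytes, -0.19 in S/S lymphocytes, 0.21 in S/S macrophages and 0.11 in A/A endothelium. Centring on it left 57 of the 60 calls in place.

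**Figure D1:**
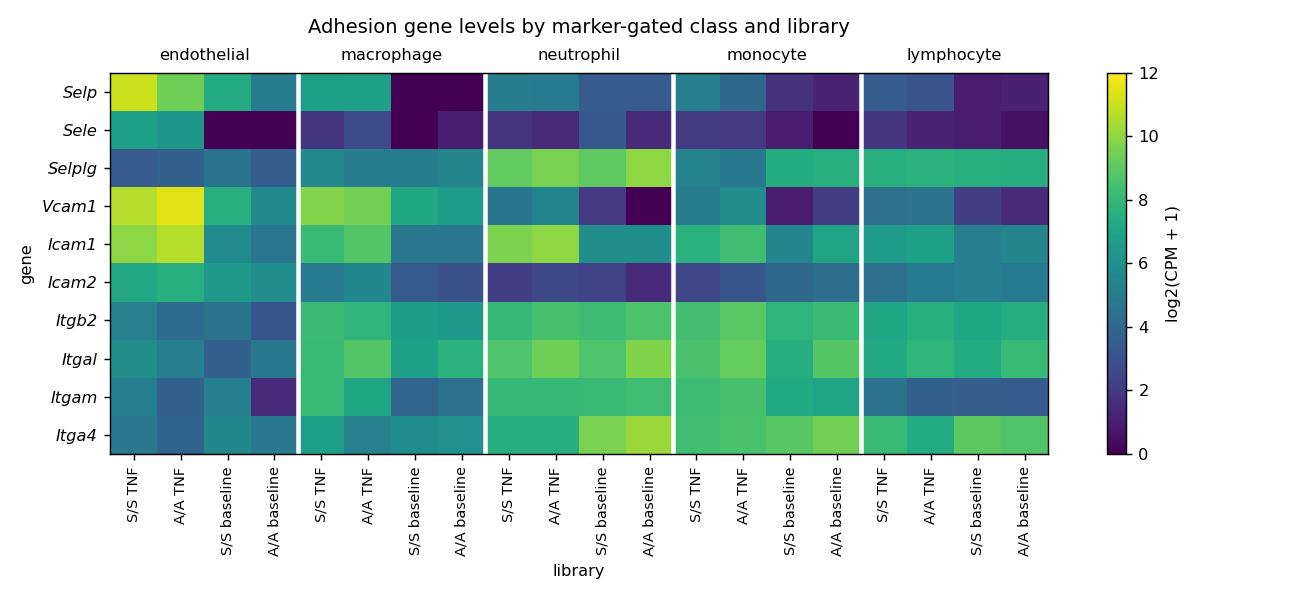
Level of the 10 genes as log2(CPM + 1), by colour, in 5 marker-gated classes (blocks of columns) of the S/S TNF, A/A TNF, S/S baseline and A/A baseline libraries (columns within a block). Selp, Sele, Vcam1 and Icam1 stand brightest in endothelial barcodes of both TNF libraries, Icam1 also in neutrophils, and Selplg and the integrin genes in leukocytes.

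**Figure D2:**
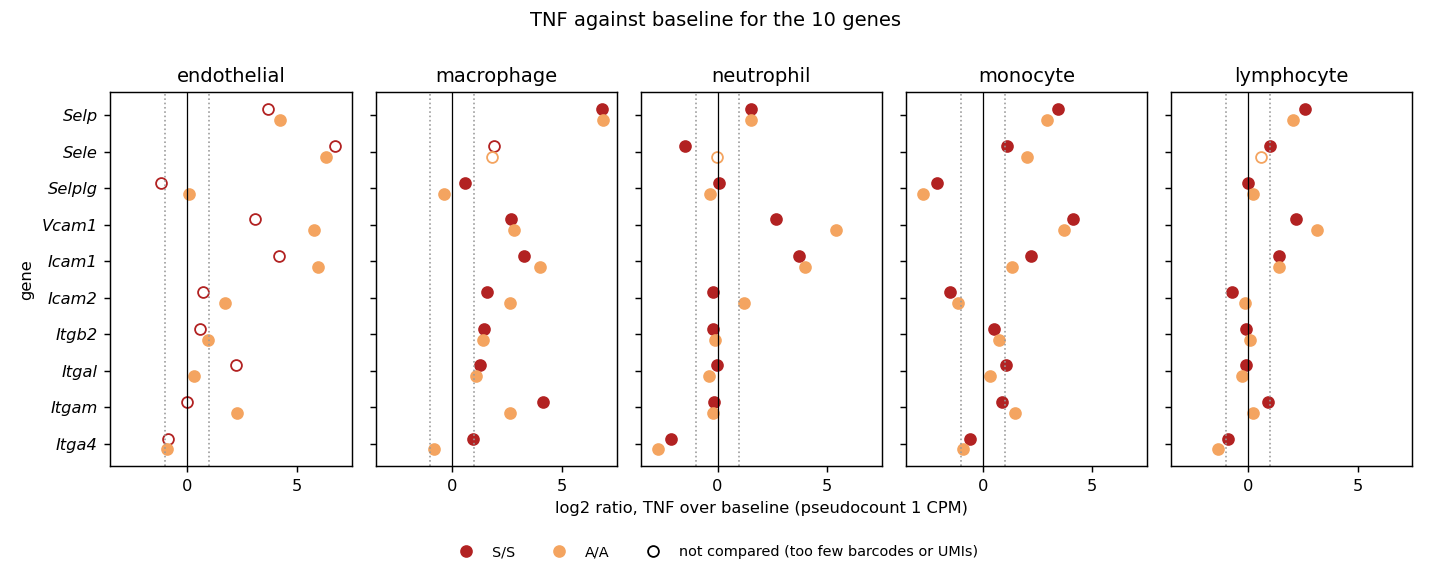
Log2 ratio of TNF over baseline (pseudocount 1 CPM) for each gene and class, in S/S (dark red) and A/A (orange), with dotted lines at 2-fold; hollow points had too few barcodes or UMIs for a call. Icam1 and Vcam1 lie to the right of the 2-fold line in every class, while Itga4 lies to the left of 0 in neutrophils, monocytes and lymphocytes.

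P-selectin transcripts marked the TNF-exposed endothelium most clearly in the S/S library. Selp (ENSMUSG00000026580.17) stood at 2139 CPM [2097 to 2182] in S/S TNF, 646 CPM [626 to 666] in A/A TNF, 167 CPM [111 to 241] in S/S baseline and 33.1 CPM [20.2 to 51.2] in A/A baseline endothelial-like barcodes. Both TNF libraries were above both baseline libraries, and within each treatment the S/S value exceeded the A/A value. In A/A the TNF level was 19.5-fold [12.6 to 32.0] that at baseline, and 6 of the 10 genes were called higher in this class and 0 lower, against 22.4% and 18.0% of all genes. The 6 were Selp, Sele, Vcam1, Icam1, Icam2 and Itgam, the last on 75 UMIs against 1, a fold of 7.21 [1.26 to 289] that did not pass with a pseudocount of 10 CPM. Selp UMIs were found in 85.3% of S/S TNF and 50.6% of A/A TNF endothelial-like barcodes, against 11.1% and 4.32% at baseline in S/S and A/A. After each barcode was thinned to 1000 UMIs, the shares were 64.5% in S/S TNF and 33.1% in A/A TNF, against 9.52% in S/S baseline and 2.97% in A/A baseline. Hepatocyte-like barcodes, which should lack the transcript, held it in 3.64% in S/S TNF and 1.83% in A/A TNF, at median depths of 1085 and 1464 UMIs against 5283 and 2399 UMIs in the endothelial-like class. Most Selp UMIs of a TNF library lay in endothelial-like barcodes, 69.7% in S/S and 73.3% in A/A, and barcodes with markers of a second class held most of the others in S/S (20.7% of the total).

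E-selectin transcripts were seen in endothelial-like barcodes of the TNF libraries alone. Sele (ENSMUSG00000026582.7) had 496 UMIs (107 CPM) in S/S TNF and 506 UMIs (80.6 CPM) in A/A TNF, and 0 UMIs in both baseline libraries. A count of 0 allows up to 17.9 CPM in the small S/S baseline class and 4.97 CPM in the A/A baseline class. The A/A difference was therefore at least 16.2-fold, counted against 3 UMIs over the class, and the S/S value at least 5.99-fold without a call. Sele UMIs were present in 32.4% of S/S TNF and 19.3% of A/A TNF endothelial-like barcodes, and in 10.6% and 7.24% after thinning, against 0.911% of hepatocyte-like barcodes in S/S TNF. The S/S TNF level was 1.33-fold [1.17 to 1.51] that of A/A TNF, under the 2-fold rule. By depth of the barcodes it was 2.60-fold [1.66 to 4.07] under 2000 UMIs, 1.68-fold [1.27 to 2.24] from 2000 to 7999 UMIs and 1.17-fold [1.01 to 1.36] from 8000 UMIs on, so the shallow barcodes passed 2-fold.

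**Figure D3:**
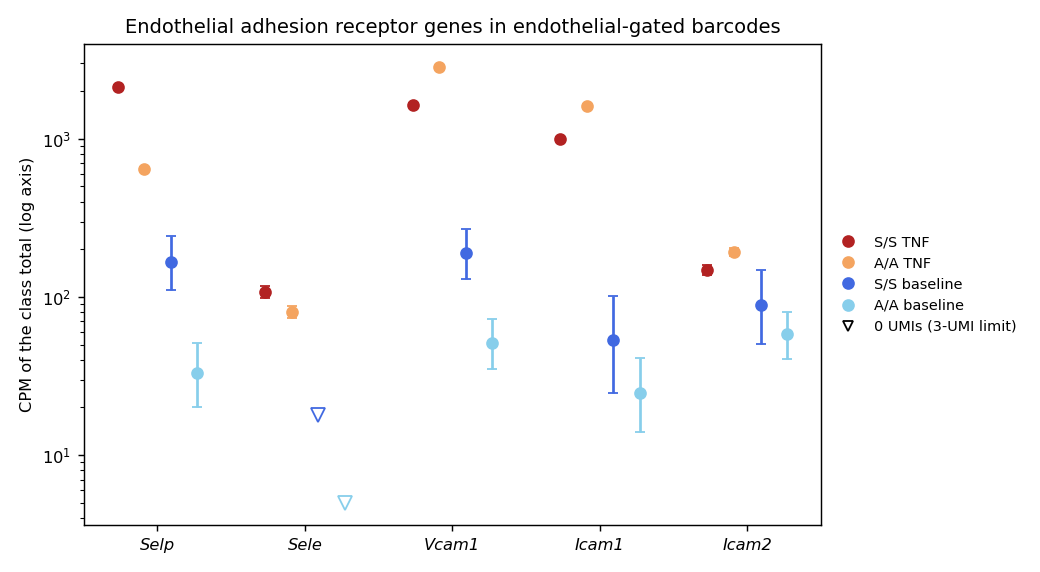
CPM (log axis) of the 5 endothelial receptor genes in endothelial-like barcodes of the S/S TNF, A/A TNF, S/S baseline and A/A baseline libraries; bars are 95% counting intervals and hollow triangles mark 0 UMIs at the limit of 3 UMIs. Selp is highest in S/S TNF (2139 CPM), while Vcam1 and Icam1 are highest in A/A TNF (2856 and 1619 CPM).

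After TNF the immunoglobulin-family receptors ran in the other order between the genotypes, with S/S below A/A. At baseline, without a call, S/S over A/A was 3.72-fold [2.20 to 6.30] for Vcam1, 2.16-fold [0.833 to 5.27] for Icam1 and 1.54-fold [0.783 to 2.90] for Icam2. The intervals of Icam1 and Icam2 thus allow either order. Vcam1 (ENSMUSG00000027962.15) stood at 1646 CPM in S/S TNF, 2856 CPM in A/A TNF, 191 CPM in S/S baseline and 51.3 CPM in A/A baseline endothelial-like barcodes. Icam1 (ENSMUSG00000037405.9) stood at 994 CPM in S/S TNF, 1619 CPM in A/A TNF, 53.7 CPM in S/S baseline and 24.8 CPM in A/A baseline. The TNF libraries were far above the baseline libraries for both genes, with A/A folds of 55.6 [39.2 to 81.9] for Vcam1 and 65.2 [39.5 to 117] for Icam1. Icam2 (ENSMUSG00000001029.16), the receptor of resting endothelium, stood closer together, at 148 CPM in S/S TNF, 192 CPM in A/A TNF, 89.4 CPM in S/S baseline and 58.0 CPM in A/A baseline. It was 3.31-fold [2.36 to 4.77] higher after TNF in A/A. Vcam1 UMIs were present in 77.0% of S/S TNF and 81.1% of A/A TNF endothelial-like barcodes, and Icam1 UMIs in 79.4% and 77.0%. The hepatocyte-like shares were 4.78% and 7.55% for Vcam1 and 7.97% and 14.0% for Icam1 in the same libraries.

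S/S baseline endothelium consisted of 36 barcodes, so its levels rest on few molecules. It held 28 Selp, 32 Vcam1, 9 Icam1 and 15 Icam2 UMIs. Of the Selp UMIs 27 came from the 7 barcodes with at least 8000 UMIs, and a single barcode gave 53.6% of the Selp and 56.3% of the Vcam1 UMIs. In barcodes of that depth Selp, Vcam1, Icam1 and Icam2 stood at 213, 252, 70.9 and 102 CPM in S/S baseline. In A/A baseline they stood at 59.7, 113, 41.8 and 101 CPM. S/S baseline barcodes under 2000 UMIs held 0 UMIs of each. Set against the whole S/S baseline class, the S/S TNF levels were 12.8-fold [8.86 to 19.3] for Selp, 8.63-fold [6.1 to 12.6] for Vcam1, 18.5-fold [9.75 to 40.5] for Icam1 and 1.66-fold [0.997 to 2.97] for Icam2, none of them called. Whether the TNF ratio of endothelium differs with genotype was not tested.

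After TNF, the S/S endothelium held more P-selectin transcript than the A/A endothelium at every depth. Over the whole class Selp was 3.31-fold [3.19 to 3.43] higher in S/S TNF than in A/A TNF, one of 3 genes called higher and 0 called lower, against 5.60% and 3.20% of all genes. Median depth differed, at 5283 UMIs in S/S TNF and 2399 UMIs in A/A TNF endothelial-like barcodes, so levels were also taken within depth bands. In barcodes under 2000 UMIs Selp stood at 1588 CPM in S/S TNF and 572 CPM in A/A TNF, a fold of 2.78 [2.39 to 3.23]. Between 2000 and 7999 UMIs it stood at 1734 CPM in S/S TNF and 510 CPM in A/A TNF, a fold of 3.40 [3.11 to 3.71]. From 8000 UMIs on it stood at 2256 CPM in S/S TNF and 711 CPM in A/A TNF, a fold of 3.17 [3.04 to 3.31]. The Selp difference was thus at least as large as 2-fold in barcodes of like depth, and its log2 ratio over 13 alternative settings lay between 1.57 and 1.81. Leading genes of the class were partly shared (Aqp1, Lyve1, Thbd, Inhbb and Timp3). Ednrb, Cd93 and Col4a1 led in A/A TNF alone, and Selp, Ccn2 and Ch25h in S/S TNF alone. Ptprb, Stab2 and Kdr led at A/A baseline and in neither TNF library. The part of such make-up in the endothelial values was not tested.

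Vcam1 and Icam1 did not follow Selp in that comparison. Vcam1 was 1.74-fold [1.69 to 1.78] and Icam1 1.63-fold [1.57 to 1.69] below the A/A TNF level in S/S TNF, neither of them past 2-fold. In the 3 bands from shallow to deep, Vcam1 stood at 806, 1496 and 1725 CPM in S/S TNF and at 1422, 2343 and 3287 CPM in A/A TNF. Icam1 stood at 753, 1078 and 990 CPM in S/S TNF and at 974, 1331 and 1836 CPM in A/A TNF. The S/S TNF value was below the A/A TNF value of the same gene in each band. Per 100 Vcam1 UMIs, the endothelial-like class held 130 Selp UMIs in S/S TNF and 22.6 in A/A TNF. Von Willebrand factor (Vwf), which shares storage granules with P-selectin, stood at 163 CPM in S/S TNF and 40.0 CPM in A/A TNF, and was 4.07-fold [3.53 to 4.72] higher. In the 3 bands Vwf stood at 91.1, 101 and 180 CPM in S/S TNF and at 12.2, 9.50 and 56.3 CPM in A/A TNF. Platelets also carry P-selectin; summed platelet markers in these barcodes came to 44.7 CPM in S/S TNF and 26.7 CPM in A/A TNF, with 4 and 3 of 11 markers at 0. Summed erythroid markers came to 1022 CPM in S/S TNF and 49.5 CPM in A/A TNF, and the part of either in the Selp difference was not tested.

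**Figure D4:**
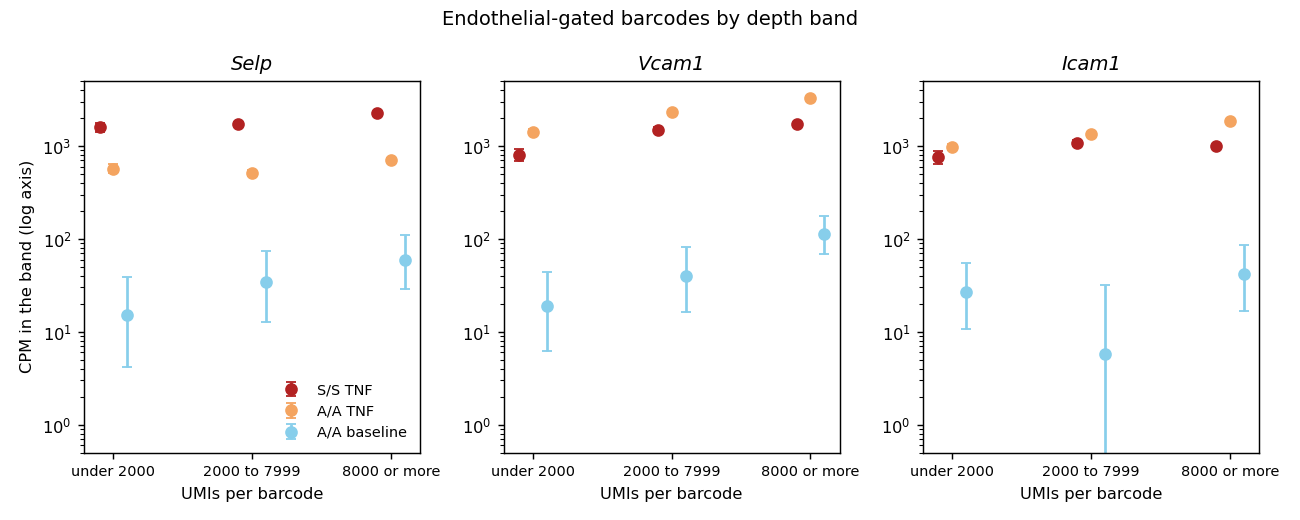
CPM (log axis) of Selp, Vcam1 and Icam1 in endothelial-like barcodes in 3 bands of UMIs per barcode, for the S/S TNF, A/A TNF and A/A baseline libraries, with 95% counting intervals. S/S TNF lies above A/A TNF for Selp in each band (1588 against 572 CPM in the shallowest) and below it for Vcam1 and Icam1.

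Single barcodes showed how these transcripts were spread. The median number of Selp UMIs per endothelial-like barcode was 6 in S/S TNF and 1 in A/A TNF, and the highest were 193 and 117. The 54 richest barcodes (9.20%) held 50% of the Selp UMIs in S/S TNF, and the 60 richest (4.77%) did so in A/A TNF, so a smaller part of the A/A barcodes, which were also shallower, held that share. Selp, Sele, Vcam1 and Icam1 were all detected together in 158 barcodes in S/S TNF and 152 in A/A TNF. After thinning to 1000 UMIs, Vcam1 was found in 62.9% of Selp-positive and 51.6% of Selp-negative barcodes in S/S TNF, and in 76.9% and 69.2% in A/A TNF. Icam1 was found in 59.9% of Vcam1-positive and 42.2% of Vcam1-negative barcodes in S/S TNF, and in 68.0% and 49.7% in A/A TNF. Sele was found in 13.5% of Selp-positive and 5.32% of Selp-negative barcodes in S/S TNF, against 6.05% and 7.83% in A/A TNF. Barcodes of 1 library are not replicates, and these shares are a description.

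Macrophage-like barcodes carried Vcam1 and Icam1 as well, and the Vcam1 there stood at a larger fraction of the endothelial level than the endothelial markers did. Vcam1 stood at 880 CPM in S/S TNF, 705 CPM in A/A TNF, 139 CPM in S/S baseline and 98.8 CPM in A/A baseline macrophages. It was 6.34-fold [5.27 to 7.69] higher after TNF in S/S and 7.13-fold [5.82 to 8.82] in A/A, and 7 of 9 compared genes were called higher in either genotype, against 25.6% of all genes in S/S and 17.4% in A/A; none was called lower, against 13.4% and 14.0%. Icam1 stood at 274 CPM in S/S TNF, 439 CPM in A/A TNF, 27.3 CPM in S/S baseline and 26.4 CPM in A/A baseline, 10.0-fold [6.65 to 15.9] higher in S/S and 16.6-fold [11.3 to 25.4] higher in A/A. Relative to the endothelial level of the same library, macrophage Vcam1 was 53.5% in S/S TNF and 24.7% in A/A TNF. The summed endothelial markers were 3.21% and 9.20%. These markers also set the classes, and barcodes with markers of a second class were set aside. The gating can thus lower the marker share in macrophages, so that share is no independent reference. At baseline macrophages held 30.0% of all Vcam1 UMIs of the S/S library and 51.5% of those of the A/A library. Icam2 was low, at 30.5 CPM in S/S TNF, 48.1 CPM in A/A TNF, 9.49 CPM in S/S baseline and 6.85 CPM in A/A baseline, and was higher after TNF in both genotypes (3.21-fold [1.57 to 7.63] in S/S and 7.02-fold [3.26 to 18.0] in A/A).

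Selp in macrophages stood nearer to its surroundings. It had 405 UMIs (112 CPM) in S/S TNF, 196 UMIs (115 CPM) in A/A TNF and 0 UMIs in both baseline libraries. Counted against a floor of 3 UMIs at baseline, it was 31.5-fold higher in S/S and 39.2-fold higher in A/A. As a percentage of the endothelial level Selp was 5.25% in S/S TNF and 17.8% in A/A TNF, beside endothelial markers of 3.21% and 9.20%. These markers are those of the gating, with the limit given above. Summed platelet markers in the class came to 907 CPM in S/S TNF, 456 CPM in A/A TNF, 233 CPM in S/S baseline and 115 CPM in A/A baseline, with 8 of 11 at 0 in both TNF libraries. The part of platelet or endothelial RNA in this Selp was not tested. In neutrophils, monocytes and lymphocytes, 7 of the 9 pairs with Selp, Sele and Vcam1 were called higher after TNF in S/S and 7 of 9 in A/A, against 10.8%, 9.97% and 4.48% of all genes of these classes in S/S and 17.2%, 15.6% and 6.75% in A/A. Their levels there were 0.483 to 4.72% of the endothelial level for Selp and 0.786 to 2.05% for Vcam1, beside 0.885 to 2.45% for the endothelial markers. In monocytes Sele in A/A TNF (2.99 CPM) was called higher against 0 UMIs at A/A baseline. It lay under the 3.60 CPM that 3 UMIs would give there. In S/S neutrophils Sele was called lower after TNF, at 2.47 CPM (14 UMIs) in S/S TNF and 8.74 CPM (6 UMIs) in S/S baseline. Neither call says more than those counts. Whether transcripts of the 3 genes in these leukocytes came from the cells themselves or from free RNA was not tested.

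**Figure D5:**
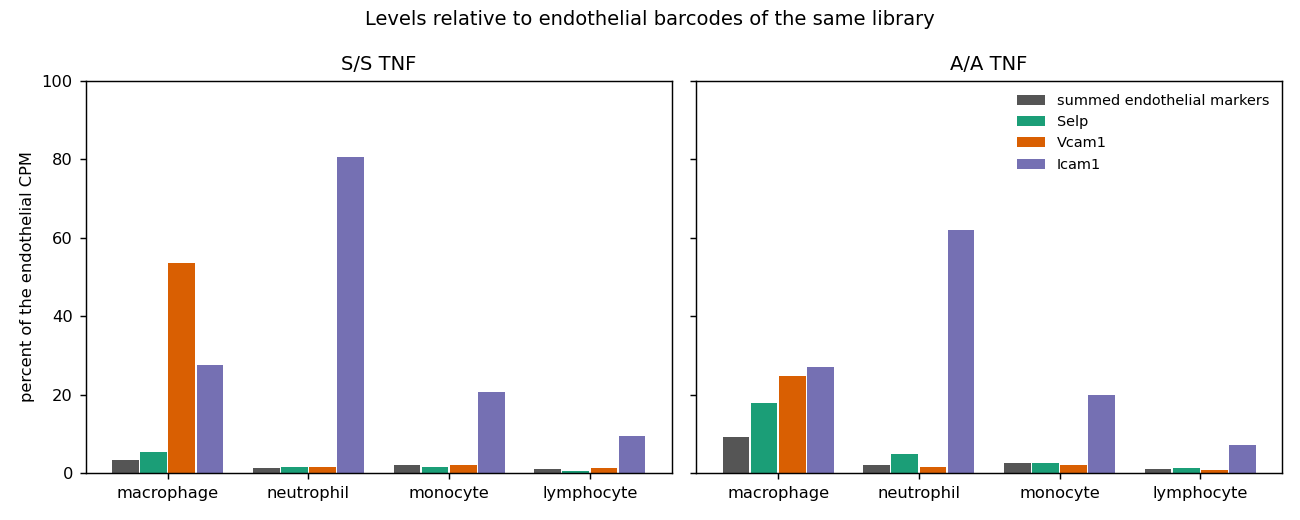
Summed endothelial markers, Selp, Vcam1 and Icam1 in 4 other classes as a percentage of their CPM in endothelial-like barcodes of the same library, for S/S TNF (left) and A/A TNF (right). The markers also set the classes, so the gating can lower their share outside endothelium. Vcam1 lies near the markers in neutrophils, monocytes and lymphocytes. Selp does so too except in A/A TNF neutrophils, at 4.72% beside 1.91%. Icam1 in neutrophils reaches 80.6% in S/S TNF and 62.1% in A/A TNF.

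Among leukocytes, Icam1 after TNF came nearest to its endothelial level in neutrophils. In neutrophil-like barcodes it stood at 801 CPM in S/S TNF, 1005 CPM in A/A TNF, 59.7 CPM in S/S baseline and 61.7 CPM in A/A baseline. That made it 13.4-fold [9.87 to 18.7] higher after TNF in S/S and 16.3-fold [11.8 to 23.1] higher in A/A, with 3 of 10 compared genes called higher in S/S and 4 of 9 in A/A, against 10.8% and 17.2% of all genes. UMIs were present in 75.7% of S/S TNF, 81.8% of A/A TNF, 10.5% of S/S baseline and 8.33% of A/A baseline neutrophils. After thinning these shares were 44.6%, 51.2%, 4.90% and 5.04% in the same libraries, beside 4.98% of S/S TNF and 6.71% of A/A TNF hepatocyte-like barcodes; median depths in neutrophils were 5212 UMIs in S/S TNF and 5508 UMIs in A/A TNF. Neutrophils held 25.3% of all Icam1 UMIs of the S/S TNF library and 28.2% of those of the A/A TNF library, beside 25.7% and 36.2% in endothelial-like barcodes. In monocytes Icam1 stood at 205 CPM in S/S TNF, 322 CPM in A/A TNF, 43.6 CPM in S/S baseline and 126 CPM in A/A baseline, and was 4.70-fold [3.97 to 5.59] higher after TNF in S/S and 2.55-fold [2.10 to 3.14] in A/A. The order of these folds turned after thinning, with log2 ratios of 1.73 in S/S and 2.54 in A/A. Icam1 was 2.90-fold [2.23 to 3.74] lower in S/S baseline than in A/A baseline monocytes, one of 2 genes called lower there (with Itgal) against 4.64% of all genes. F13a1, Fn1 and Lyz2 were among the leading genes of both monocyte classes. Plcb1 and Vcan led in the 232 S/S baseline barcodes alone, and Cxcl10, Chil3, Adgre4 and Ace in the 57 A/A baseline barcodes alone. The part of that difference in either call was not tested. In lymphocytes, which joined T, B and NK or ILC1 barcodes, Icam1 stood at 94.9 CPM in S/S TNF, 116 CPM in A/A TNF, 34.4 CPM in S/S baseline and 42.9 CPM in A/A baseline. It was 2.76-fold [2.41 to 3.16] higher after TNF in S/S and 2.71-fold [2.42 to 3.04] in A/A, where 3 of 10 and 3 of 9 compared genes were called higher in this class against 4.48% and 6.75% of all genes. Icam2 in lymphocytes had no call, at 20.9 CPM in S/S TNF, 28.6 CPM in A/A TNF, 35.4 CPM in S/S baseline and 31.2 CPM in A/A baseline. After TNF this was 14.1% of the endothelial level in S/S and 14.9% in A/A, above the 9.54% and 7.17% of Icam1 in the same class. In A/A neutrophils Icam2 was called higher on 40 UMIs in A/A TNF against 1 in A/A baseline, a fold of 3.05 [0.517 to 123]. It was lower after TNF in monocytes, at 4.89 CPM in S/S TNF, 8.40 CPM in A/A TNF, 15.6 CPM in S/S baseline and 19.2 CPM in A/A baseline (3.19-fold [2.13 to 4.78] lower in S/S and 2.29-fold [1.23 to 4.03] lower in A/A), and neither call held with a pseudocount of 10 CPM.

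Selplg (ENSMUSG00000048163.14), the selectin ligand gene, belonged to the leukocytes. In neutrophils it stood at 549 CPM in S/S TNF, 776 CPM in A/A TNF, 523 CPM in S/S baseline and 980 CPM in A/A baseline, with no difference past 2-fold. Neutrophils held 35.9% of all Selplg UMIs in S/S TNF and 44.3% in A/A TNF. In monocytes Selplg stood at 40.0 CPM in S/S TNF, 27.6 CPM in A/A TNF, 172 CPM in S/S baseline and 190 CPM in A/A baseline. Monocyte levels after TNF were thus below both baseline levels, 4.30-fold [3.78 to 4.88] lower in S/S and 6.87-fold [5.53 to 8.52] lower in A/A, 2 genes in either genotype being called lower in this class (with Icam2) against 23.8% of all genes in S/S and 23.1% in A/A, and 5 higher against 9.97% and 15.6%. Lymphocytes stood between 179 and 211 CPM in all 4 libraries. Macrophages stood between 32.9 and 49.3 CPM, and endothelial-like barcodes between 9.94 and 23.9 CPM. Plasmacytoid dendritic barcodes stood among the highest, at 497 CPM in S/S TNF, 517 CPM in A/A TNF, 452 CPM in S/S baseline and 534 CPM in A/A baseline.

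The β2 integrin genes were higher after TNF in macrophages and not called in neutrophils. In macrophages Itgb2 (ENSMUSG00000000290.14), the common β2 chain, stood at 285 CPM in S/S TNF, 231 CPM in A/A TNF, 104 CPM in S/S baseline and 86.1 CPM in A/A baseline, 2.73-fold [2.20 to 3.44] higher after TNF in S/S and 2.68-fold [2.12 to 3.41] in A/A. Itgam (ENSMUSG00000030786.19), the Mac-1 α chain, stood at 270 CPM in S/S TNF, 133 CPM in A/A TNF, 14.2 CPM in S/S baseline and 20.6 CPM in A/A baseline. It was 19.0-fold [10.8 to 36.9] higher after TNF in S/S and 6.48-fold [4.14 to 10.7] in A/A. Itgal (ENSMUSG00000030830.19), the LFA-1 α chain, stood at 273 CPM in S/S TNF, 439 CPM in A/A TNF, 113 CPM in S/S baseline and 209 CPM in A/A baseline, 2.42-fold [1.96 to 3.03] and 2.10-fold [1.80 to 2.45] higher after TNF in S/S and A/A. The leading genes of the class also differed with treatment, and after TNF between the genotypes. Prg4, Serpinb2 and Cxcl13 were among the first 10 in both TNF libraries alone, and Vsig4 in both baseline libraries alone. Marco and Clec4f were there in all libraries but S/S TNF, and Cd5l in all of them. The barcodes compared were thus not alike in make-up, and the part of this in the macrophage values was not tested. The Itgb2 and Itgal calls, unlike those of Itgam, did not hold under every setting, with Itgb2 at log2 ratios of 0.64 in S/S and 0.89 in A/A after thinning. Neutrophils and monocytes also use these genes, and their markers in macrophage-like barcodes came to 872 CPM in S/S TNF, 1273 CPM in A/A TNF, 268 CPM in S/S baseline and 136 CPM in A/A baseline for neutrophils and 1618, 1227, 1726 and 1369 CPM in the same libraries for monocytes. Their part in the integrin values was not tested.

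In neutrophils Itgb2 lay between 257 and 396 CPM and Itgam between 250 and 310 CPM in the 4 libraries, with no call. The direction of Itgam depended on the scaling: its log2 ratio for TNF in S/S was -0.17, and 1.01 relative to genes of like intron length. Itgal stood at 417 CPM in S/S TNF, 662 CPM in A/A TNF, 420 CPM in S/S baseline and 859 CPM in A/A baseline neutrophils. At baseline it was 2.05-fold [1.77 to 2.37] lower in S/S, against 2.93% of all genes called lower. It was the only call among the 6 genes that could be compared there. It fell short after thinning (log2 ratio -0.78). In monocytes Itgam stood at 303 CPM in S/S TNF, 362 CPM in A/A TNF, 163 CPM in S/S baseline and 130 CPM in A/A baseline, and was 2.79-fold [2.30 to 3.42] higher after TNF in A/A. Itgal in monocytes stood at 379 CPM in S/S TNF, 571 CPM in A/A TNF, 179 CPM in S/S baseline and 453 CPM in A/A baseline. It was 2.12-fold [1.94 to 2.31] higher after TNF in S/S and 2.53-fold [2.22 to 2.88] lower in S/S baseline than in A/A baseline. Itgb2 in monocytes had no call (232 to 486 CPM).

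Itga4 (ENSMUSG00000027009.19), the α4 chain that pairs with VCAM1, was the member with the largest drop in neutrophils. It stood at 175 CPM in S/S TNF, 180 CPM in A/A TNF, 774 CPM in S/S baseline and 1185 CPM in A/A baseline. Both TNF libraries were well below both baseline libraries, 4.42-fold [3.97 to 4.91] lower in S/S and 6.59-fold [6.01 to 7.21] lower in A/A, in a class where 41.2% of all genes in S/S and 32.4% in A/A were called lower. Neutrophil genes with long introns as a whole stood lower in the TNF libraries, which differ in software version. Itga4 has 63720 bases of intron (GRCm38 annotation), and those with introns of 50 to 100 kb in all had median log2 ratios of -1.43 in S/S and -1.20 in A/A. Taken relative to genes of like intron length, the Itga4 log2 ratio was -0.77 in S/S, short of 2-fold, and -1.56 in A/A. In lymphocytes Itga4 stood at 267 CPM in S/S TNF, 164 CPM in A/A TNF, 502 CPM in S/S baseline and 425 CPM in A/A baseline, 2.59-fold [2.45 to 2.74] lower after TNF in A/A (1 gene called lower against 18.6% of all genes, and 0 in S/S against 19.6%), and -0.57 on the log2 scale relative to genes of like intron length. In T barcodes taken alone Itga4 was called lower in both genotypes, at 233 CPM in S/S TNF and 616 CPM in S/S baseline (2.65-fold [2.42 to 2.91] lower) and at 108 CPM in A/A TNF and 282 CPM in A/A baseline (2.60-fold [2.38 to 2.84] lower), whereas in B barcodes it was called lower in A/A (2.60-fold [2.36 to 2.88]) and not in S/S (1.46-fold [1.30 to 1.65]). Genes with introns of 50 to 100 kb had median log2 ratios of -0.72 in S/S and -0.82 in A/A T barcodes. In B barcodes these medians were -0.70 in S/S and -0.93 in A/A. The T and B falls of Itga4 are given without centring on such genes, and without the share of all genes called. Itga4 in monocytes (316 CPM in S/S TNF, 374 CPM in A/A TNF, 474 CPM in S/S baseline and 698 CPM in A/A baseline) had no call.

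Apart from Selp, the calls between S/S TNF and A/A TNF in the 5 classes were of the integrin genes Itgam, Itgb2 and Itga4. In endothelial-like barcodes Itgam stood at 35.4 CPM in S/S TNF and 11.9 CPM in A/A TNF, 2.97-fold [2.25 to 3.95] higher in S/S. Itgb2 stood at 35.9 CPM in S/S TNF and 17.2 CPM in A/A TNF, 2.09-fold [1.63 to 2.68] higher. Both genes are leukocyte genes, and summed neutrophil and macrophage markers in that class came to 859 and 425 CPM in S/S TNF against 1180 and 342 CPM in A/A TNF. Monocytes, which also carry both genes, made up 9.39% of the kept S/S TNF and 5.38% of the kept A/A TNF barcodes. Their markers are not in these sums. The part of leukocyte RNA in the 2 calls was not tested. In macrophages Itgam was 2.03-fold [1.75 to 2.35] and Itga4 2.95-fold [2.25 to 3.91] higher in S/S TNF (109 CPM for Itga4 in S/S TNF and 37.0 CPM in A/A TNF), 2 genes called higher and 0 lower against 7.00% and 6.34% of all genes. Prg4, Cxcl13 and Serpinb2 were among the 10 leading genes of the macrophage class in both TNF libraries. Of these libraries, Alox15 was among them in S/S TNF alone, and Marco and Clec4f in A/A TNF alone. Barcodes with exactly the 3 required markers made up 16.1% of the S/S TNF and 6.44% of the A/A TNF class. In monocytes Selp was 2.25-fold [1.81 to 2.81] higher in S/S TNF, at 34.9 CPM against 15.5 CPM in A/A TNF, which falls to a log2 ratio of 0.32 after thinning. That was the single monocyte call between these libraries, against 3.62% of all genes higher and 1.26% lower. The neutrophil and lymphocyte classes gave 0 calls of 10, where 2.21% and 3.21% of all genes were called higher and 2.07% and 1.55% lower. The pooled lymphocyte class held 204 T barcodes of 452 in S/S TNF and 636 of 1021 in A/A TNF, and its parts gave calls of their own. In T barcodes Itga4 was 2.14-fold [1.92 to 2.39] higher in S/S TNF (233 CPM in S/S TNF and 108 CPM in A/A TNF), and Itgam and Selp were also called higher, on 24 and 19 UMIs in S/S TNF against 29 and 20 in A/A TNF. In B barcodes Icam1 was 2.39-fold [1.78 to 3.24] lower in S/S TNF, at 36.5 CPM in S/S TNF and 87.2 CPM in A/A TNF. The median gene stood at log2 ratios of 0.0073 in T and -0.067 in B barcodes. Shares of all genes called are not given for T or B barcodes alone. Whether these calls are more frequent than among all genes is therefore not known.

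Other genes of the adhesion cascade were read from 5 lists of 61 genes, of which 60 were found; the lists were drawn up with earlier results of these data known. In A/A endothelium 47 could be compared, with 9 higher and 12 lower after TNF, against 22.4% and 18.0% of all genes, and the list medians lay between -0.57 (capture and selectin ligands) and 0.31 (other integrins) against 0.11 for all genes. Ackr1, a chemokine-binding receptor of venules, stood at 213 CPM in A/A TNF and 11.6 CPM in A/A baseline, 18.3-fold [8.88 to 45.7] higher. Itgb3, the β3 integrin chain, was 16.6-fold [7.59 to 45.3] higher, and the junction genes F11r, Esam and Cdh5 were 3.76-fold, 2.32-fold and 2.26-fold higher. Vwf was 3.85-fold lower after TNF, a value that rests on 10 A/A baseline barcodes of at least 8000 UMIs, which held 88 of its 93 UMIs there. In barcodes under 2000 UMIs Vwf stood at 12.2 CPM in A/A TNF and 3.82 CPM in A/A baseline, a fold of 3.20 [0.43 to 142], and from 2000 to 7999 UMIs at 9.50 CPM in A/A TNF and 23.0 CPM in A/A baseline, a fold of 0.414 [0.132 to 1.71]. St3gal4, a sialyltransferase that helps build selectin ligands, was 3.94-fold lower, and Podxl, a sialomucin, 2.38-fold lower. Between S/S TNF and A/A TNF endothelium 10 of 47 were higher and 3 lower, against 5.60% and 3.20% of all genes, with a median of 0.79 for the 8 compared capture and selectin ligand genes against -0.079 for all genes. Beside Vwf, these included the sialomucin Cd34 (45.2 CPM in S/S TNF and 16.2 CPM in A/A TNF), Mcam (147 and 61.0 CPM), Itgav (107 and 37.3 CPM) and Cd44 (68.9 and 33.6 CPM), all at least 2-fold higher in S/S.

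Leukocytes showed other members of these lists. In S/S macrophages 14 of 40 were higher and 3 lower after TNF, against 25.6% and 13.4% of all genes. In A/A macrophages 11 of 38 were higher and 6 lower, against 17.4% and 14.0%. The other integrin subunits had median log2 ratios of 1.77 in S/S, with 7 of 10 higher, and 0.97 in A/A, with 4 of 8 higher, against 0.21 and 0.064 for all genes. Itga5, the fibronectin receptor chain, stood at 88.4 CPM in S/S TNF and 7.12 CPM in S/S baseline, 12.4-fold [5.64 to 34.1] higher, and at 73.3 CPM in A/A TNF and 7.83 CPM in A/A baseline, 9.37-fold [4.61 to 22.2] higher. Itgax, the CD11c chain, stood at 94.8 CPM in S/S TNF and 21.1 CPM in A/A TNF macrophages, 4.49-fold [3.18 to 6.52] higher in S/S. In neutrophils 9 of 38 list genes were higher and 14 lower after TNF in S/S, against 10.8% and 41.2% of all genes, and 9 of 39 were higher and 9 lower in A/A, against 17.2% and 32.4%. Between S/S TNF and A/A TNF neutrophils 0 of 40 differed at least 2-fold, against 2.21% of all genes higher and 2.07% lower. Of 16 junction and transmigration genes, 8 could be compared after TNF in S/S neutrophils and 9 in A/A. Their medians were 1.70 in S/S and 1.63 in A/A against -0.75 and -0.36 for all neutrophil genes. Only 2 could be compared between the baseline neutrophil libraries, so the others reached 20 UMIs only with those of a TNF library. The list holds the endothelial markers Cdh5 and Esam, and the part of free RNA in these medians was not tested. Alcam, an adhesion receptor, stood at 93.2 CPM in S/S TNF and 1533 CPM in S/S baseline neutrophils and at 93.6 CPM in A/A TNF and 1851 CPM in A/A baseline ones. These Alcam levels were not set against genes of like intron length. Neutrophil genes with introns over 100 kb in all had median log2 ratios of -2.28 in S/S and -2.09 in A/A. Itgb1, the β1 chain that pairs with the α4 chain, went the other way from Itga4, at 242 CPM in S/S TNF and 102 CPM in S/S baseline (2.37-fold higher) and at 240 CPM in A/A TNF and 85.1 CPM in A/A baseline (2.81-fold higher). In monocytes 6 of 43 were higher and 13 lower in S/S after TNF, against 9.97% and 23.8% of all genes, and 9 of 41 were higher and 15 lower in A/A, against 15.6% and 23.1%. Between S/S TNF and A/A TNF monocytes 0 of 43 differed, against 3.62% of all genes higher and 1.26% lower. Lymphocytes had 6 higher and 7 lower of 46 in S/S, against 4.48% and 19.6% of all genes, and 5 higher and 11 lower of 46 in A/A, against 6.75% and 18.6%.

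The pattern of each member over 41 sums of a class in a library was set against 14844 genes by Pearson's r on log2(CPM + 1), as a description of sums that share libraries and depth. Selp was most like Inhbb (0.92), Lyve1 (0.92) and Rasip1 (0.90), and Vcam1 most like Fabp4 (0.89), Rhoc (0.89) and Lyve1 (0.88). Sele was most like Steap1 (0.89). Icam1 was most like Tnip1 (0.94), Tnfaip3 (0.93) and Nfkbia (0.90). Itgb2 and Itgal were each other's nearest gene (0.93), Selplg was most like Mob3a (0.86), Itgam most like Metrnl (0.85), Itga4 most like Cytip (0.92) and Icam2 most like Sptbn1 (0.89).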

How the data were processed

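The deposited matrices held UMI counts per gene and barcode, whole numbers that the authors made with Cell Ranger against mm39, per the submitters' processing notes; per the file headers the TNF matrices came from version 6.1.2 and the baseline matrices from version 7.1.0. The sources used here do not give whether intronic reads were included. Kept barcodes had 300 genes or more and no more than 20% of UMIs from mitochondrial genes (deposited TNF matrices started at 250 genes, the S/S and A/A baseline matrices at 67 and 50). A marker counted as detected with at least 1 UMI and at least 2 times its share in the library; 195 of 199 markers in 16 lists were matched. A barcode took the class with at least 3 detected markers. It was set aside as mixed when a second class had at least 3 and over 50% of the leading share; this stood in for a doublet caller. UMIs were summed per class and library and scaled to CPM. Log2 ratios used a pseudocount of 1 CPM, with exact Poisson and exact binomial (Clopper-Pearson) 95% intervals and a floor of 3 UMIs summed over the class. The members and the 5 adhesion lists were chosen with earlier results of these data known. Named were all members, up to 4 genes per list by absolute ratio, and the 3 most alike genes per member, of which some are not printed. The ratio and call steps were tested on simulated data. Promoters came from RefSeq. Computation used pandas 2.3.3, numpy 2.4.6 and scipy 1.17.1 under Python 3.11.15, and matplotlib 3.10.9 for plots. Alternatives were other marker minimums, filters, depths, scalings, centrings, pseudocounts and UMI minimums.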

Additional observations from a re-analysis of the deposited data

How the results depend on the processing

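No paired analysis was possible because each group held 1 library. Over 13 settings 0 of the 60 calls changed sign. The settings that only moved the minimum of UMIs or of barcodes leave each ratio as it is, so they could not change a sign. Thinning to 1000 UMIs kept 32, with 8 under 2-fold and 20 not compared for lack of UMIs; a pseudocount of 10 CPM kept 48, mixed barcodes given to their leading class 54, centring on genes of like intron length 55, and the other settings 56 to 60. For TNF against baseline in S/S, thinning gave 11 higher and 2 lower pairs and the pseudocount of 10 CPM 2 lower, against 18 and 4. For S/S TNF against A/A TNF, thinning gave 2 higher and 2 lower and the pseudocount 3 higher, against 6 and 0, and 1 lower was found with at least 2 markers and 1 with mixed barcodes included. For S/S baseline against A/A baseline, 1 was higher with mixed barcodes, 1 after thinning, 3 without a minimum of UMIs and 3 without a minimum of barcodes (a setting chosen after seeing the data), against 0. Itgb2 in endothelium and Itgam in macrophages, between S/S TNF and A/A TNF, each fell under 2-fold in 6 settings, and Itga4 in macrophages with mixed barcodes (log2 ratio 0.64) and after thinning (0.97). The A/A endothelial log2 ratios for TNF lay at 3.78 to 4.28 for Selp, 5.29 to 6.17 for Vcam1 and 5.55 to 6.12 for Icam1. Apart from thinning and the mixed barcodes, whose construction leaves fewer or other molecules, the cause was not tested. In endothelium the part of depth in the Sele and integrin values was not tested.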
